A study of Mus musculus with 20 samples.

Results

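The genes described are those of foreign-chemical metabolism in mouse liver under the nuclear receptors CAR (gene Nr1i3) and PXR (gene Nr1i2). They are 38 genes set by name, without a threshold on any value: the receptors themselves, the electron donor Por, and enzymes of the Cyp2a, Cyp2b, Cyp2c, Cyp3a, Fmo, Ces, Gst, Ugt2b and Sult families with Ephx1, Akr1b7 and Nqo1. The names were chosen with earlier results of these data known. Of the 38, 37 had a probe under their own name and 36 had one that passed the filter on dim probes, among 21998 genes tested. Cyp2c65 was well above background on only 2 of 20 arrays, both from null E2 livers, and was not tested. Cyp2a5 had no probe of its own name, and both Cyp2a4 probes are also listed for it.

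The study measured liver RNA of 20 female mice on 1-colour Agilent arrays, 1 array per mouse and 5 mice per group. The groups were mice lacking estrogen receptor alpha (labelled ERa-/-, here null) gavaged with estradiol (E2, 1 mg/kg) or with placebo, and ERa+/+ mice (wild type) gavaged with E2 or with placebo. Every mouse, controls included, had its ovaries removed at 4 weeks, was gavaged at 9 weeks and was killed 4 hours later under ketamine and xylazine. The placebo was castor oil with 5% ethanol, and the breeders of the wild types shared parents with the null mice. The labels name the genotype alone, with neither the deleted stretch of the gene nor the tissues in which it was lost.

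CAR and PXR are ligand-activated transcription factors that pair with RXR on repeats of a 6-letter half-site. In liver they are known for inducing cytochrome P450 genes of the Cyp2b, Cyp2c and Cyp3a families, with conjugating enzymes and transporters, when drugs, steroids or bile acids are present. Cytochrome P450s and flavin monooxygenases oxidise a substrate, esterases and epoxide hydrolase cleave it, and glutathione transferases, glucuronosyltransferases and sulfotransferases attach a soluble group to it. Estrogens at high dose are known activators of mouse CAR. Many of these genes lie in clusters of close relatives, which limits what one array probe can tell apart.

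The sequences shown first are examples of probes whose letters, or listed transcripts, a member shares with a relative. Of the 4, the levels below use the Cyp2c29 probe; the other 3 are the dimmer probes of their genes. The dimmer Cyp2a4 probe (mm9, chr7:27098659-27099724, + strand, 60 letters over a span of 1066 bases) also lists the RefSeq transcript of Cyp2a5, as does the brighter Cyp2a4 probe (chr7:27099880-27099939) that gives its levels. The dimmer Cyp3a11 probe (mm9, chr5:146672058-146673925, - strand) also lists Cyp3a41a, Cyp3a41b and Cyp3a44. The Cyp2c29 probe (mm9, chr19:39403642-39403701, + strand) and the dimmer Cyp2c37 probe (mm9, chr19:40084382-40084441, + strand) align over 31 letters, of which 27 are identical; capitals mark the identical letters of that stretch.
Cyp2a4, dimmer probe shared with Cyp2a5: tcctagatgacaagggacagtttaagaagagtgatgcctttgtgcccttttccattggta
Cyp3a11, dimmer probe shared with Cyp3a41a, Cyp3a41b and Cyp3a44: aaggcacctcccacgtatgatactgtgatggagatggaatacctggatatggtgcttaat
Cyp2c29: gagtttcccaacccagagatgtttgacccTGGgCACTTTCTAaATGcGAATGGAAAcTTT
Cyp2c37, dimmer probe: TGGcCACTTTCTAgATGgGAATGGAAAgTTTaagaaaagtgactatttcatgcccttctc
Among the other pairs, the probes used for Cyp2c37 and Cyp2c50 were identical at 35 of 40 aligned letters. The probe used for Gstm1 and a second Gstm3 probe were identical at 25 of 27. Levels of these genes may therefore hold signal from relatives, and the files place the Gstm1 probe on chromosome 5 while its other probe lies on chromosome 3.

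Promoters are shown for Gstm2, the one member past the test, and for Cyp3a25, the nearest to it. They run from 250 bases before to 50 bases after the RefSeq transcript start on GRCm38.p6, with half-sites AGGTCA or AGTTCA, found on either strand, in capitals. Gstm2 lies at chr3:107986371-107986670 (- strand) and Cyp3a25 at chr5:146009568-146009867 (- strand).
Gstm2: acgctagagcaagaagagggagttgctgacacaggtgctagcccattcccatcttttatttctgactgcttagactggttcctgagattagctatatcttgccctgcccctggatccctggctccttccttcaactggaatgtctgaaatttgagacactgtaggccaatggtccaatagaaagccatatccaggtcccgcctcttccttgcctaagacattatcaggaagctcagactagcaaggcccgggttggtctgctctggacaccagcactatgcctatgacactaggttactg
Cyp3a25: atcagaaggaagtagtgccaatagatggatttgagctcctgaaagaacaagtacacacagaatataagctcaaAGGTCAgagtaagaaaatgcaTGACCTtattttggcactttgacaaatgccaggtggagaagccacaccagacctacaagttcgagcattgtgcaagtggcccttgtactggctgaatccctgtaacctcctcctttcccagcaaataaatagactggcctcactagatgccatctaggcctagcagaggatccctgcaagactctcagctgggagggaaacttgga
The Cyp3a25 window holds 2 half-sites and the Gstm2 window none. Of 39 promoters of 34 members, 14 held at least one half-site (12 genes), against 27.7% of all 32841 promoters. Half-site pairs as direct repeats spaced by 3, 4 or 5 letters or as an everted repeat spaced by 6 were in 0 member windows and in at most 0.0396% of all promoters. The estrogen-response palindrome, GGTCA and TGACC spaced by 3 letters, was in 0 member windows and in 0.0700% of all promoters. The letters TGACNNNGC, a core of the antioxidant response element known to drive many transferase genes, were searched after the values were seen and were in the Cyp2c65 and Gsta3 windows and in 12.4% of all promoters. A match is a description of letters, not of binding. An absence says little, because the repeats and the palindrome are rare in all promoters and letters outside these windows were not searched.

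Levels are log2 intensities relative to the 75th percentile of the array, so a level of 0 equals that percentile and levels of different genes are not compared. Tests were limma fits over all 21998 genes with Benjamini-Hochberg adjustment, and a gene was called at an adjusted p under 0.05. Signal was well above background for 51.6% to 70.0% of spots per array, and the probes of all 36 members were above background on all 20 arrays. Esr1 itself separated the genotypes, at -2.16 to -0.93 in the null livers and -0.04 to 1.02 in the wild-type livers. The mean of 10 hepatocyte markers was 9.34 to 9.84 across the 20 arrays, with all 4 groups overlapping. The mean of 5 erythroid markers of 7 listed was 3.18 to 3.58 in null E2, 3.32 to 3.98 in null placebo, 3.34 to 3.76 in wild-type E2 and 2.75 to 3.15 in wild-type placebo livers. In bulk liver, fewer cells of a type and less RNA per cell cannot be told apart.

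E2 left the module without a called gene in either genotype. In null livers, 0 of 36 members passed the test against 0.00455% of all genes (1 gene), and in wild-type livers 0 of 36 against 0.318% (70 genes). The median member difference, E2 minus placebo, was -0.058 in null livers and 0.0096 in wild-type livers on the log2 scale. At an unadjusted p under 0.05, 1 member in null livers and 4 in wild-type livers qualified, 2.78% and 11.1% of the module, against 6.06% and 8.28% of all genes. The difference between the E2 effects of the genotypes was called for 0 of 36 members, against 0.164% of all genes, and 2 had an unadjusted p under 0.05 (5.56%, against 7.39%). By family, 2 of 10 glutathione transferases lay above 0 for E2 in nulls and 3 of 10 in wild types, against 46.8% and 50.6% of all genes. Of the 7 measured Cyp2c genes, 1 lay above 0 in nulls and 4 in wild types, and of the 3 Cyp3a genes 1 in each genotype. The differences ran from -0.35 to 0.46 in nulls and from -0.69 to 0.40 in wild types, so no member reached a 2-fold difference after E2. With scaling on the array median, 8 E2 differences in nulls and 17 in wild types turned sign, as the median of all genes moved by -0.11 and -0.22. Among the markers of other liver cells, 10 of 10 Kupffer cell markers had positive E2 differences in both genotypes, with medians of 0.18 in nulls and 0.27 in wild types. The 5 erythroid markers had a median E2 difference of -0.16 in nulls and 0.49 in wild types, and the 3 adipose markers -0.34 and 0.56; their part in the module's values was not tested.

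**Figure D1:**
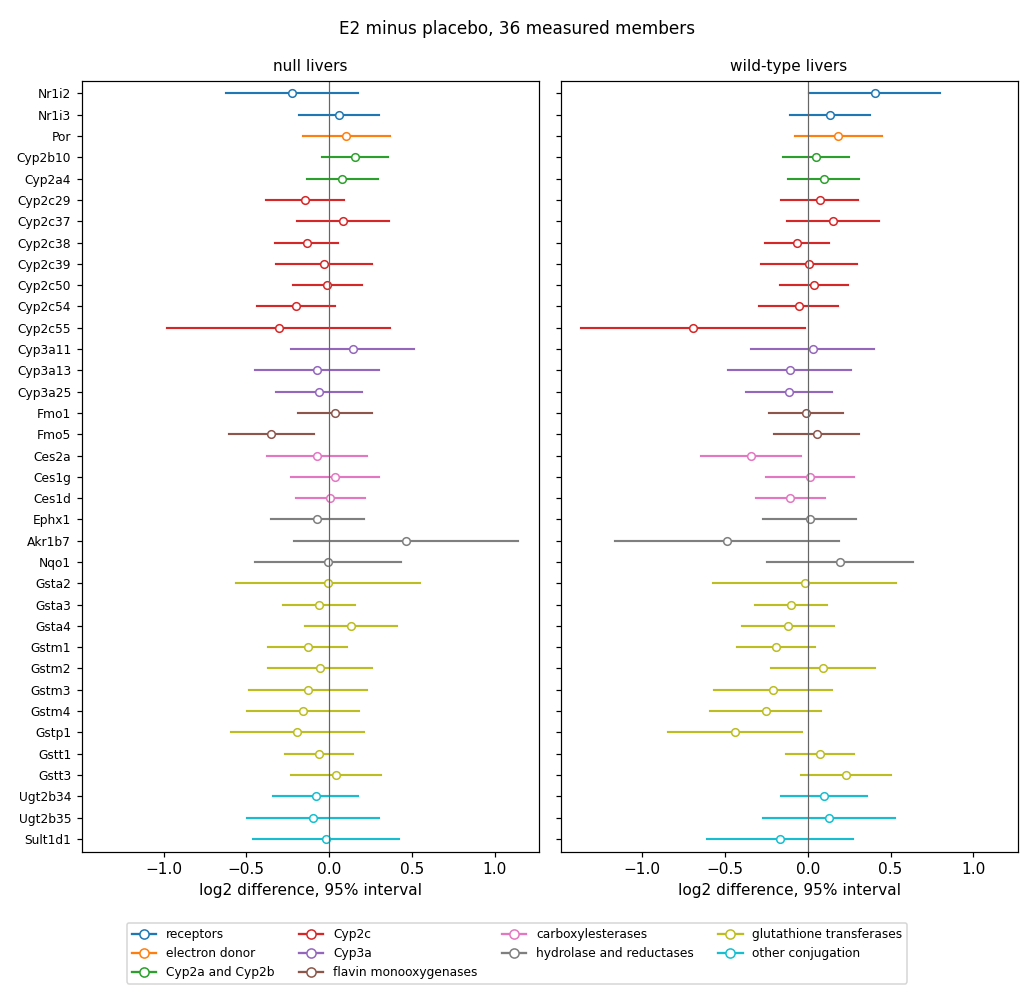
E2 minus placebo log2 differences with 95% intervals for the 36 measured members, in null livers (left) and wild-type livers (right), coloured by role. No member was called in either genotype; the largest shift toward lower levels in wild types was Cyp2c55 at -0.69, with an interval of -1.37 to -0.02.

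The receptors come first. Nr1i2 had levels of 2.88, 3.14, 3.12, 3.06 and 3.96 in the null E2 livers and 3.83, 3.51, 3.41, 3.32 and 3.21 in the null placebo livers. It had 3.48, 3.45, 3.28, 2.96 and 3.38 in the wild-type E2 livers and 3.35, 2.99, 2.996, 2.48 and 2.70 in the wild-type placebo livers. The 5 wild-type E2 levels ran from 2.96 to 3.48 and the wild-type placebo levels from 2.48 to 3.35, so the groups overlap. The E2 difference of Nr1i2, the gene of PXR, was -0.22 ± 0.19 (SE) in nulls and 0.40 ± 0.19 in wild types, with adjusted p of 0.913 and 0.590. The effects differed by 0.63, wild type minus null, with a 95% interval of 0.07 to 1.19 and an adjusted p of 0.650. Animal 5 of the null E2 group, at 3.96, stood apart from its group.
Nr1i3 had levels of 5.51, 5.28, 5.33, 5.31 and 5.05 in the null E2 livers and 5.34, 5.06, 5.02, 5.67 and 5.09 in the null placebo livers. It had 5.34, 5.34, 5.19, 5.10 and 5.15 in the wild-type E2 livers and 5.20, 4.99, 4.96, 5.07 and 5.21 in the wild-type placebo livers. These levels of the CAR gene overlap in every pair of groups. Its E2 difference was 0.06 in nulls and 0.13 in wild types, each with an SE of 0.11.

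Por had levels of 8.26, 8.08, 8.23, 8.12 and 8.28 in the null E2 livers and 8.25, 8.10, 8.37, 8.14 and 7.59 in the null placebo livers. It had 8.18, 8.14, 8.10, 8.29 and 8.04 in the wild-type E2 livers and 8.19, 7.999, 7.96, 7.61 and 8.07 in the wild-type placebo livers. Por passes electrons to all microsomal P450s, and its groups overlap. Its E2 difference was 0.10 ± 0.12 in nulls and 0.19 ± 0.12 in wild types.

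The P450 genes most used as readouts of the receptors were next. Cyp2b10 had levels of 7.78, 7.53, 7.46, 7.41 and 7.70 in the null E2 livers and 7.30, 7.59, 7.38, 7.43 and 7.40 in the null placebo livers. It had 7.38, 7.52, 7.20, 7.08 and 7.28 in the wild-type E2 livers and 7.36, 7.14, 7.26, 7.09 and 7.36 in the wild-type placebo livers. Cyp2b10 is the standard CAR target and hydroxylates testosterone and many drugs. Its E2 difference was 0.15 in nulls, with a 95% interval of -0.05 to 0.36, and 0.05 in wild types, with an interval of -0.15 to 0.25.
Cyp2a4 had levels of 9.35, 9.47, 9.27, 9.21 and 9.32 in the null E2 livers and 9.36, 9.14, 9.30, 9.26 and 9.15 in the null placebo livers. It had 9.50, 9.54, 9.52, 9.14 and 9.12 in the wild-type E2 livers and 9.41, 9.18, 9.13, 9.12 and 9.51 in the wild-type placebo livers. The Cyp2a enzymes, shared here between Cyp2a4 and Cyp2a5, hydroxylate testosterone and coumarin, and their groups overlap throughout. The E2 difference was 0.08 in nulls and 0.10 in wild types, each with an SE of 0.10, and at the other Cyp2a4 probe 0.12 and 0.10.
Cyp2c29 had levels of 8.05, 8.02, 8.40, 8.20 and 7.86 in the null E2 livers and 8.32, 8.10, 8.46, 8.34 and 8.04 in the null placebo livers. It had 8.23, 8.24, 8.66, 8.50 and 8.23 in the wild-type E2 livers and 8.31, 8.25, 8.41, 8.35 and 8.19 in the wild-type placebo livers. Cyp2c29, an epoxygenase induced by CAR ligands, had an E2 difference of -0.15 in nulls and 0.07 in wild types. Its groups overlap.
Cyp3a11 had levels of 8.47, 8.36, 8.71, 8.49 and 8.67 in the null E2 livers and 8.58, 8.87, 8.75, 8.24 and 7.56 in the null placebo livers. It had 8.22, 8.50, 8.64, 8.53 and 8.38 in the wild-type E2 livers and 8.46, 8.60, 8.42, 8.29 and 8.35 in the wild-type placebo livers. Cyp3a11 is the main PXR target of mouse liver. Its E2 difference was 0.14 ± 0.18 in nulls and 0.03 ± 0.18 in wild types. Among the null placebo livers, animal 5 was the lowest at 7.56. With only animals numbered 750 or above, which leaves 2 null placebo livers, the E2 difference in nulls was 0.73 ± 0.18 and the null-minus-wild-type difference under placebo -0.53, against -0.03 with all animals, and neither was called. Its dimmer probe, shared with Cyp3a41a, Cyp3a41b and Cyp3a44, gave 0.24 in nulls and 0.33 in wild types, and neither was called.

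**Figure D2:**
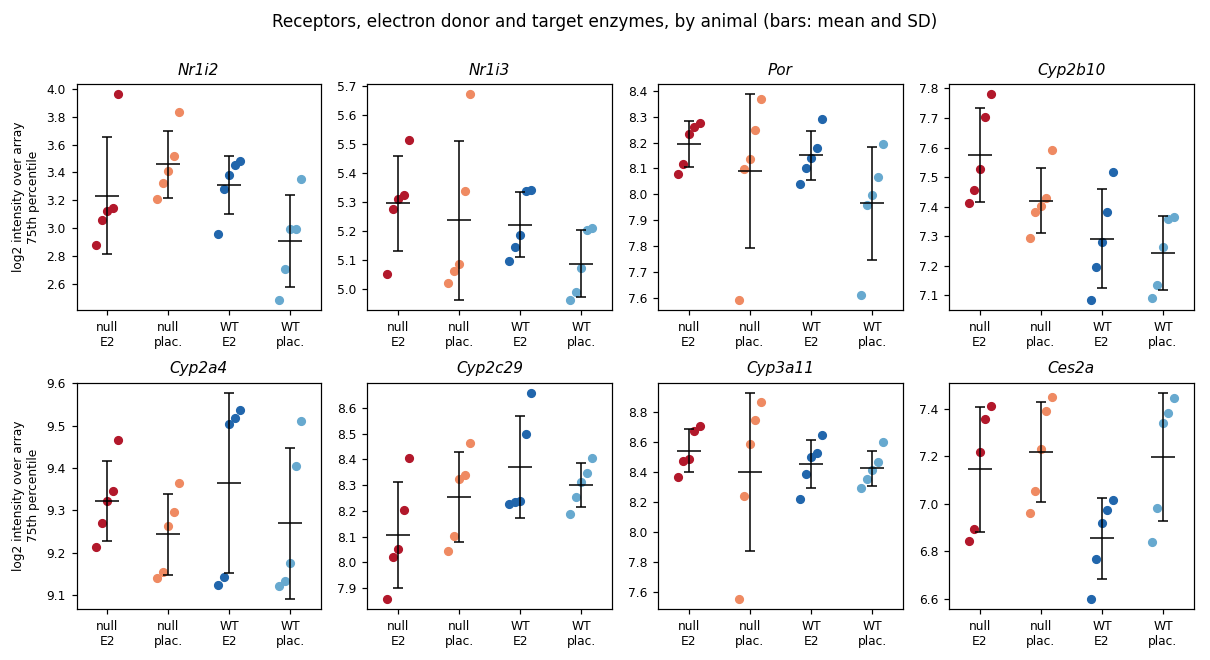
Level of each animal, in log2 intensity over the array 75th percentile, for the receptors, Por and P450 and esterase targets, with mean and SD (n = 5 per group) from left to right for null E2, null placebo, wild-type E2 and wild-type placebo. Nr1i2 spans 2.48 to 3.35 in wild-type placebo and 2.96 to 3.48 in wild-type E2 livers.

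The members with the smallest unadjusted p for E2 in wild types were Ces2a, Gstp1 and Cyp2c55, all with negative differences. Ces2a had levels of 6.89, 6.84, 7.41, 7.22 and 7.36 in the null E2 livers and 7.05, 7.39, 7.45, 7.23 and 6.96 in the null placebo livers. It had 6.60, 6.77, 6.92, 7.02 and 6.97 in the wild-type E2 livers and 6.84, 7.45, 7.38, 6.98 and 7.34 in the wild-type placebo livers. Ces2a, a hydrolase of acylated drugs and glycerides, differed by -0.07 in nulls and -0.34 in wild types, with adjusted p of 0.972 and 0.547.
Gstp1 had levels of 5.03, 4.91, 5.64, 5.42 and 5.76 in the null E2 livers and 5.51, 5.85, 5.75, 5.39 and 5.22 in the null placebo livers. It had 4.86, 5.30, 4.86, 5.56 and 5.72 in the wild-type E2 livers and 5.45, 5.55, 5.99, 5.74 and 5.78 in the wild-type placebo livers. Gstp1 conjugates glutathione to electrophiles and its E2 difference was -0.19 in nulls and -0.44 in wild types. Its second probe, which also lists Gstp2, gave -0.20 and -0.37. Cyp2c55 had levels of -0.94, -0.69, -0.081, -0.020 and -0.098 in the null E2 livers and -0.88, 0.31, 0.70, 0.043 and -0.48 in the null placebo livers. It had -1.37, -1.09, -1.58, -1.64 and -0.93 in the wild-type E2 livers and -1.48, 0.21, -0.70, -1.13 and -0.046 in the wild-type placebo livers. Cyp2c55, an epoxygenase known in mice from intestine and liver under CAR and PXR ligands, differed by -0.31 in nulls and -0.69 in wild types. Levels of all 3 genes overlap between treatments in both genotypes.

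In null livers the smallest unadjusted p for E2 belonged to Fmo5, Cyp2c54 and Cyp2b10, and the widest E2 difference to Akr1b7. Fmo5 had levels of 7.31, 6.95, 7.43, 7.50 and 7.54 in the null E2 livers and 7.79, 7.74, 7.52, 7.69 and 7.73 in the null placebo livers. It had 7.02, 7.22, 7.56, 7.57 and 7.59 in the wild-type E2 livers and 7.32, 7.32, 7.52, 7.20 and 7.33 in the wild-type placebo livers. Fmo5 is a flavin monooxygenase that acts on ketones, and it was the one member with an unadjusted p under 0.05 in nulls. Its E2 difference was -0.35 ± 0.12 in nulls (adjusted p 0.818) and 0.05 ± 0.12 in wild types, while its other probes gave -0.41 and -0.44 in nulls. The highest null E2 level, 7.54, is above the lowest null placebo level, 7.52.
Cyp2c54 had levels of 7.61, 7.55, 7.96, 7.75 and 7.54 in the null E2 livers and 8.20, 7.74, 7.85, 7.94 and 7.67 in the null placebo livers. It had 7.40, 7.51, 7.83, 7.80 and 7.46 in the wild-type E2 livers and 7.73, 7.53, 7.76, 7.61 and 7.65 in the wild-type placebo livers. The E2 difference of Cyp2c54, a close relative of Cyp2c29, was -0.20 in nulls. Akr1b7 had levels of -0.28, 0.17, -0.74, 0.33 and 1.57 in the null E2 livers and -0.82, 0.41, -0.067, -0.57 and -0.22 in the null placebo livers. It had -0.93, -0.73, -0.70, -0.99 and -0.87 in the wild-type E2 livers and -0.32, -0.14, -0.35, -1.07 and 0.092 in the wild-type placebo livers. Akr1b7, an aldehyde reductase, had an E2 difference of 0.46 in nulls and -0.49 in wild types, each with an SE of 0.32. The 2 differences have opposite signs, the difference between them was -0.95 (95% interval -1.91 to 0.00) and it was not called (adjusted p 0.678). Null E2 animal 5, at 1.57, was the highest of its group. With 1 array left out at a time, the difference between the E2 effects ran from -1.19 to -0.61.

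Genotype gave the one call. Null livers had higher Gstm2, a mu-class glutathione transferase, than wild-type livers when both treatments were averaged. This averaged contrast called 1 of 36 members, 2.78% of the module, against 0.696% of all genes (153 genes, 0.409% higher and 0.286% lower). Within one treatment, 0 of 36 members were called under E2 and 0 under placebo, against 0.464% and 0.0727% of all genes. The averaged contrast uses the same 20 arrays as the within-treatment ones, so the 3 are not separate evidence.

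Gstm2 had levels of 5.49, 5.76, 5.82, 5.68 and 6.07 in the null E2 livers and 5.47, 6.15, 5.82, 5.97 and 5.69 in the null placebo livers. It had 5.27, 5.26, 5.33, 5.22 and 5.30 in the wild-type E2 livers and 5.45, 5.48, 4.93, 4.70 and 5.36 in the wild-type placebo livers. Every wild-type E2 level lies below every null E2 level, and 5.47 in null placebo animal 1 is the only null level at or under the highest wild-type level, 5.48. Gstm2 (probe at mm9 chr3:107784622-107784681) averaged 5.76 ± 0.21 in null E2, 5.82 ± 0.26 in null placebo, 5.27 ± 0.04 in wild-type E2 and 5.18 ± 0.35 in wild-type placebo livers (SD, n = 5 each). The difference was 0.56 ± 0.11 (SE) on the log2 scale, adjusted p 0.0160, with 0.49 under E2 (adjusted p 0.265) and 0.64 under placebo (adjusted p 0.147). All 3 Gstm2 probes were called when all kept probes were tested, at 0.56, 0.59 and 0.54 with adjusted p of 0.0169, 0.0364 and 0.0442; 2 of them overlap on the genome and all rest on the same livers. Within slides 1 to 4 the difference was 0.39, 0.80, 0.63 and 0.39. Slides 1 and 2 each held 3 null and 3 wild-type arrays, slide 3 held 3 and 2, and slide 4 held 1 and 2, with treatments unevenly spread. The averaged Gstm2 difference did not pass with scaling on the array median (0.62, adjusted p 0.0978) or with only animals numbered 750 or above (0.61, adjusted p 0.142). Of the 7 animals numbered below 750, 5 were null, so animal number and genotype are partly tied.

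**Figure D3:**
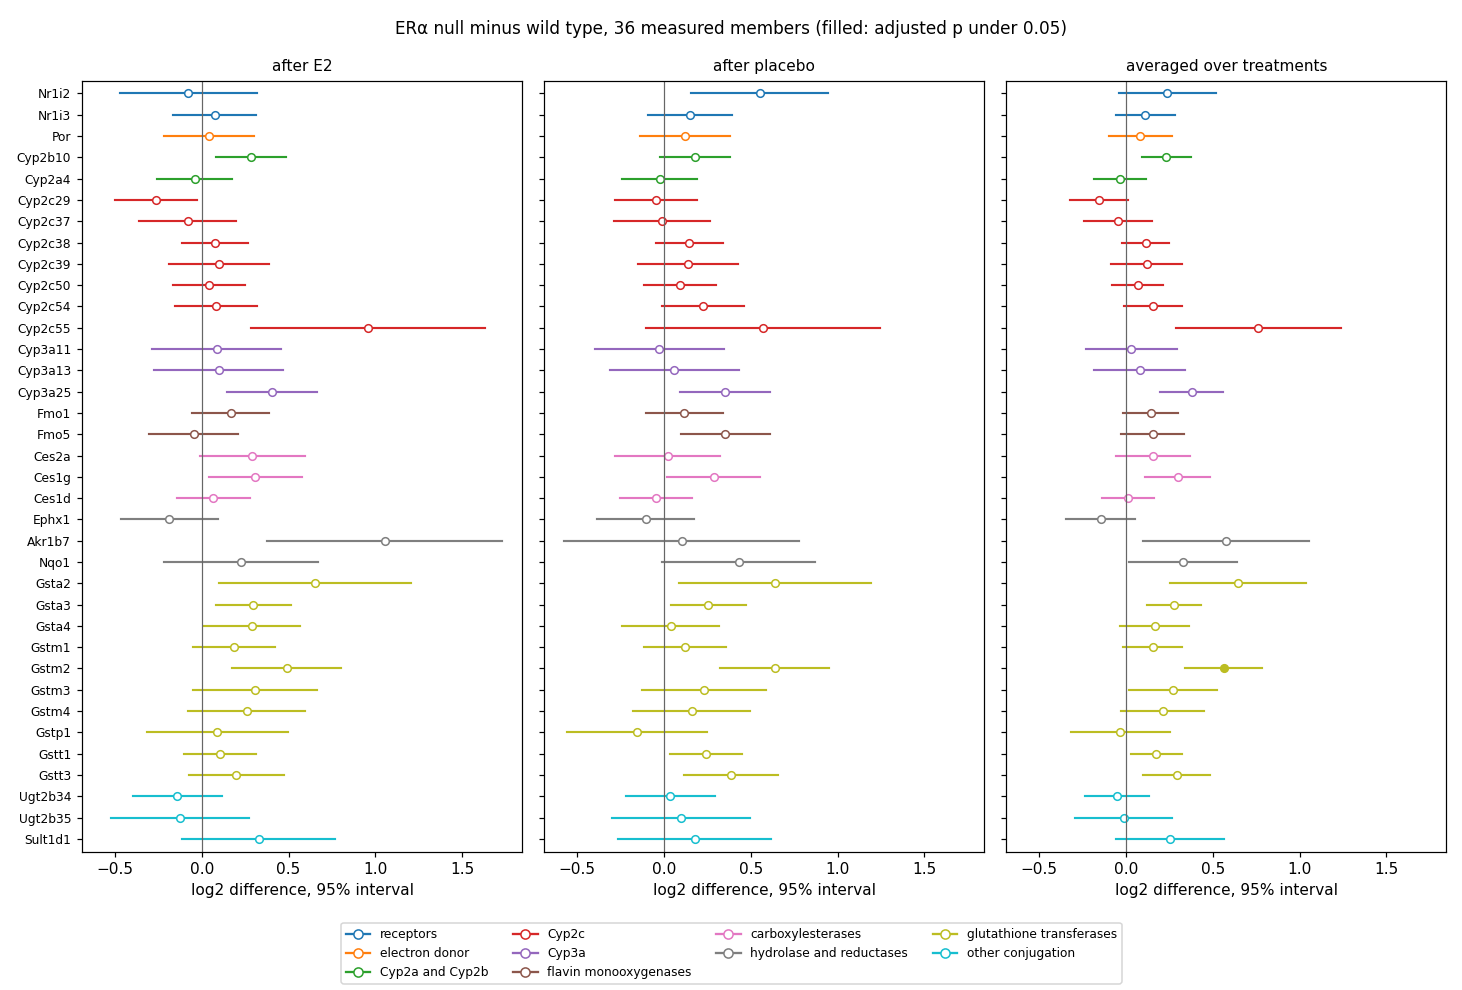
Null minus wild-type log2 differences with 95% intervals for the 36 measured members under E2 (left), under placebo (middle) and averaged over both (right), coloured by role. Gstm2 is the only filled symbol, at 0.56 in the averaged panel.

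Next to Gstm2 stood Cyp3a25 and Gsta3. Cyp3a25 had levels of 6.80, 6.66, 6.52, 6.34 and 6.58 in the null E2 livers and 6.51, 6.91, 6.84, 6.76 and 6.18 in the null placebo livers. It had 6.21, 6.10, 6.32, 6.04 and 6.20 in the wild-type E2 livers and 6.18, 6.37, 6.19, 6.20 and 6.50 in the wild-type placebo livers. Cyp3a25, a P450 that oxidises steroids, was higher in every null E2 liver than in every wild-type E2 liver, while null placebo animal 5, at 6.18, is as low as the lowest wild-type placebo liver. With Gstm2 it was one of 2 members whose null E2 and wild-type E2 groups do not overlap, 5.56% of the module against 2.50% of all genes. Its averaged difference was 0.38 ± 0.09 with an adjusted p of 0.0514. Gsta3 had levels of 9.26, 9.33, 9.54, 9.48 and 9.37 in the null E2 livers and 9.70, 9.38, 9.48, 9.20 and 9.51 in the null placebo livers. It had 8.83, 9.16, 9.38, 9.04 and 9.09 in the wild-type E2 livers and 9.39, 9.16, 9.07, 9.14 and 9.24 in the wild-type placebo livers. Gsta3, an alpha-class transferase that detoxifies aflatoxin epoxide in mice, had an averaged difference of 0.28 ± 0.07 with an adjusted p of 0.0827, and its second probe gave 0.27.

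The 10 glutathione transferases, which conjugate electrophiles, had mostly positive differences. Averaged over treatments, 9 of 10 were above 0 with a median of 0.24, 1 was called and 6 had an unadjusted p under 0.05. Of all genes, 51.3% were above 0 in that contrast, 0.696% were called and 12.9% had an unadjusted p under 0.05. Under E2, 10 of 10 transferases were above 0, against 49.6% of all genes, and under placebo 9 of 10, against 53.4%. In each of these, 0 transferases were called, against 0.464% and 0.0727% of all genes. Gstt3 had levels of 6.39, 6.39, 5.96, 6.37 and 6.37 in the null E2 livers and 6.15, 6.32, 6.28, 6.21 and 6.31 in the null placebo livers. It had 6.42, 5.71, 6.20, 5.999 and 6.17 in the wild-type E2 livers and 6.21, 5.90, 5.62, 5.63 and 5.97 in the wild-type placebo livers. Gstt3, of the theta class, differed by 0.20 under E2 (adjusted p 0.650) and 0.39 under placebo (adjusted p 0.313). Null E2 animal 3 was the lowest of its group at 5.96. Gsta2 had the widest averaged difference of the transferases, 0.65 ± 0.19 (adjusted p 0.113), and levels of 3.33 to 4.70 in null E2, 3.57 to 4.34 in null placebo, 3.04 to 3.51 in wild-type E2 and 2.69 to 3.87 in wild-type placebo livers. Gstp1 was the exception in the averaged contrast, at -0.03.

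**Figure D4:**
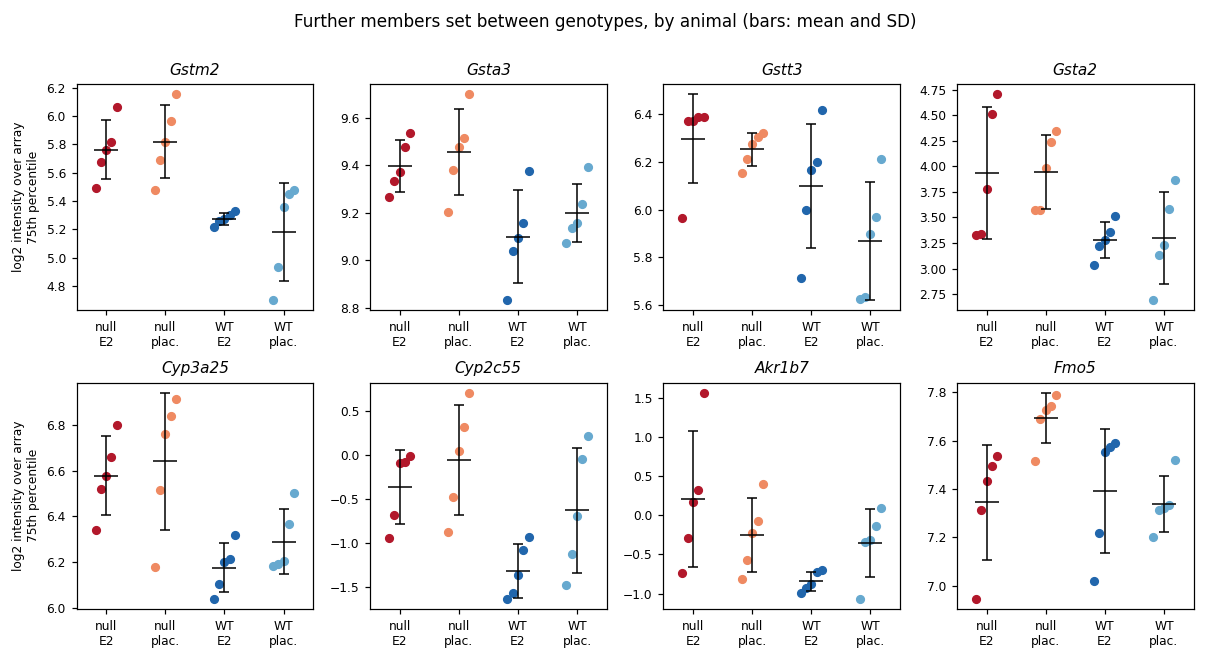
Level of each animal, in log2 intensity over the array 75th percentile, for 8 members set between genotypes, with mean and SD (n = 5 per group) from left to right for null E2, null placebo, wild-type E2 and wild-type placebo. For Gstm2 the wild-type E2 levels span 5.22 to 5.33 and the null E2 levels 5.49 to 6.07.

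Over the whole module, 29 of 36 members were above 0 in the averaged contrast (80.6%), against 51.3% of all genes, and the median difference was 0.15 against 0.0041. At an unadjusted p under 0.05, 12 members qualified (33.3%), all with higher null levels, against 12.9% of all genes. Under E2 the counts were 28 above 0 and 10 with an unadjusted p under 0.05 (27.8%, against 9.63% of all genes, of which 49.6% were above 0). Under placebo they were 29 and 9 (25.0%, against 10.1% of all genes, of which 53.4% were above 0). The members share livers and in places probe letters, and were chosen with earlier results of these data known. These counts are therefore descriptions without a test. Positive averaged differences were not particular to the module. In the lists of other drug-handling genes given below, 24 of 32 phase 1 genes (median 0.061), 19 of 31 phase 2 genes (0.061) and 10 of 14 transporters (0.10) were above 0. So were 18 of 30 genes of the other P450 list (0.057), which also names electron donors and Alas1. In the list of receptor partners and other sensors of foreign chemicals, which includes coactivators and chaperones, 9 of 14 were above 0 (0.047). Of the listed NRF2 targets, 3 of 9 were above 0 (-0.050). Nqo1 and the glutathione transferases, counted in the module, are not in that NRF2 list. The erythroid values given above were lowest in wild-type placebo livers. Alas2, an erythroid heme enzyme gene, was called higher in null livers under placebo (0.90, adjusted p 0.00249) and averaged (0.58, adjusted p 0.00172). Also in the averaged contrast, 0 of 8 sinusoidal endothelial markers lay above 0 (median -0.13), 3 of 9 stellate markers did (median -0.21) and 2 of 10 Kupffer cell markers did (median -0.065). Of the 10 hepatocyte markers, 9 lay above 0 in the averaged contrast (median 0.031), 9 under placebo (median 0.053) and 6 under E2 (median 0.011). Under placebo, 6 of 6 cholangiocyte markers (median 0.36) and 3 of 3 adipose markers (median 0.42) lay above 0, and under E2 2 of 6 and 0 of 3. Alas2 was the only marker of these lists called in any contrast, and the part of these markers in the module's values was not tested.

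Among the P450s, Cyp2b10 differed by 0.28 under E2 and 0.18 under placebo (averaged 0.23, adjusted p 0.117). Cyp2c55 differed by 0.96 and 0.57, and Akr1b7 by 1.05 and 0.10, in the same order of treatments. Akr1b7 under E2 was the one member beyond a 2-fold difference and had an adjusted p of 0.265. Its level in null E2 animal 5 was 1.57, against -0.74 to 0.33 in the other null E2 livers. With 1 array left out at a time, the Akr1b7 difference under E2 ran from 0.71 to 1.29. Cyp2c29 was one of 7 members below 0 in the averaged contrast, at -0.16 (adjusted p 0.435). Cyp3a11 and the Cyp2a4 signal were at 0.03 and -0.03. The second, dimmer Cyp2c38 probe disagreed with the one used: it was called under E2 (0.70, adjusted p 0.0198) and averaged (0.54, adjusted p 0.0110), while the probe used gave 0.11. Nr1i2 differed by -0.08 under E2 (adjusted p 0.927) and 0.55 under placebo (adjusted p 0.319), which average to 0.24. Nr1i3 differed by 0.07 under E2 and 0.15 under placebo, and neither receptor was called.

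The remaining members are given by range. In the averaged contrast Ces1g, an esterase of lipids and drugs, was at 0.30 (adjusted p 0.132) and Nqo1, a quinone reductase, at 0.33 (adjusted p 0.357). The other 16 measured members, which include Ephx1, the microsomal epoxide hydrolase, and Sult1d1, a sulfotransferase, lay between -0.15 and 0.27, and 0 were called in any of the 6 contrasts. Ces1g ran from 4.80 to 5.22 in null E2, 4.75 to 5.12 in null placebo, 4.50 to 5.19 in wild-type E2 and 4.51 to 4.91 in wild-type placebo livers. Nqo1 ran from -0.54 to -0.15 in null E2, -0.70 to 0.024 in null placebo, -0.91 to -0.15 in wild-type E2 and -1.24 to 0.027 in wild-type placebo livers. Null and wild-type levels overlap for both genes. Ephx1 ran from 7.14 to 7.65 in null E2, 7.44 to 7.60 in null placebo, 7.33 to 8.08 in wild-type E2 and 7.38 to 7.85 in wild-type placebo livers. Ephx1 differed the other way, at -0.15. Gstm3 ran from 4.81 to 5.69 in null E2, 4.66 to 5.58 in null placebo, 4.69 to 4.999 in wild-type E2 and 4.89 to 5.32 in wild-type placebo livers. Sult1d1 ran from 4.60 to 5.36 in null E2, 4.55 to 5.54 in null placebo, 4.11 to 5.25 in wild-type E2 and 4.45 to 4.97 in wild-type placebo livers. In both genes the highest null E2 level is above the highest wild-type E2 level, and the groups overlap. Cyp2c50 ran from 7.82 to 8.25 in null E2, 7.87 to 8.29 in null placebo, 7.88 to 8.19 in wild-type E2 and 7.88 to 8.13 in wild-type placebo livers. Cyp2c37 ran from 6.52 to 7.09 in null E2, 6.58 to 7.14 in null placebo, 6.76 to 7.16 in wild-type E2 and 6.66 to 7.05 in wild-type placebo livers. These relatives of Cyp2c29, whose probes share 35 of 40 letters, overlap between all groups.

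Other genes of drug handling outside the module were counted from lists set by name. The lists were chosen with earlier results of these data known, so the counts are a description and not separate evidence. In the averaged contrast 3 of 32 other phase 1 genes, 1 of 31 phase 2 genes and 1 of 14 transporters were called, all higher in nulls. Of the receptor partners and other sensors 0 of 14 were called, of the other P450 list 0 of 30 and of the NRF2 targets 0 of 9. Over all genes the share called was 0.696%. At an unadjusted p under 0.05, 9 of 32 phase 1 genes, 10 of 31 phase 2 genes and 6 of 14 transporters qualified. So did 1 of 14 receptor partners and other sensors, 8 of 30 genes of the other P450 list and 1 of 9 NRF2 targets. The shares were 33.3% of the module and 12.9% of all genes. Aldh1a7 and Aldh1a1, retinal and aldehyde dehydrogenases, differed by 0.52 (adjusted p 0.0110) and 0.44 (adjusted p 0.0134). Tpmt, which methylates thiopurines, differed by 0.49 (adjusted p 0.00703), Fmo2, a flavin monooxygenase, by 0.51 (adjusted p 0.0364), and Slco2b1, an organic anion uptake carrier, by 0.27 (adjusted p 0.0405). In the other 5 contrasts limma called 0 genes of these lists, and at most 8 of a list had an unadjusted p under 0.05. Aldh1a1 had levels of 9.02, 8.85, 8.65, 8.79 and 8.73 in the null E2 livers and 9.23, 8.74, 8.67, 8.87 and 8.62 in the null placebo livers. It had 8.45, 8.37, 8.67, 8.37 and 8.47 in the wild-type E2 livers and 8.51, 8.11, 8.22, 8.19 and 8.41 in the wild-type placebo livers. The lowest null level, 8.62, lies above 9 of 10 wild-type levels.

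The median within-group SD was 0.21 for the members and 0.23 for all genes. Set against the 1000 genes nearest in level, 35 of 36 members lay above the middle in SD and 6 above the 90th percentile: Gsta2, Akr1b7, Cyp2c55, Sult1d1, Gstp1 and Ugt2b35. Akr1b7 and Cyp2c55 had SDs of 0.54 each. Across animals, with group means removed, 10 receptor-target pairs were correlated; the smallest p was for Nr1i3 and Cyp2a4 (Pearson r 0.44, Spearman rho 0.48, permutation p 0.0248 and 0.0229, adjusted over the 10 pairs 0.248 and 0.229, n = 20). Without the 2 animals farthest in Nr1i3 its r was 0.58, and no pair passed the adjustment.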

How the data were processed

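Liver RNA of 20 mice was hybridised to 1-colour Agilent arrays. Per the file headers, Agilent Feature Extraction 10.10.1.1 gave each spot mean, median and background intensities and a processed intensity, which the authors deposited; the headers name build mm9. A log2 table was deposited too; the submitters' processing notes name limma, without a version. That table was used as an alternative.

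Processed intensities were divided by the array's 75th percentile and taken to log2. A probe was kept when 4 or more of the 5 arrays of some group had it well above background (30960 of 55681), and the brightest probe stood for a gene (21998 genes). Control spots and 0 to 16 spots per array with outlier flags were left out. limma 3.58.1 (R 4.3.3) fitted 4 group means with 16 residual degrees of freedom, and p-values were adjusted by Benjamini-Hochberg over all genes in each of 6 contrasts. Array number limits the precision. Animals were separate mice; cages of 5 are mentioned in the labels' protocols without assignment.

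Symbols came from the files, updated through RefSeq tables. The fit was tested on simulated data. Values in every animal are given for Nr1i2, Nr1i3, Por, Cyp2b10, Cyp2a4 (shared with Cyp2a5), Cyp2c29 and Cyp3a11, for called members and for the 3 smallest p of each contrast. Members and lists were chosen with earlier results of these data known. Correlations were planned without a p and were given permutation p-values (100000 resamples within groups). Alternatives covered scaling, background correction, filter, probe choice, slide, replicate number, animal number and left-out arrays. No count model was used.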

Additional observations from a re-analysis of the deposited data

Results flagged for a closer look

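Of 144 tests for 1 animal standing apart in its group, 5 found one, and chance alone gives about 1 in 20. Nr1i2 was 3.96 in null E2 animal 5, against 2.88 to 3.14 in the other 4. Gstt3 was 5.96 in null E2 animal 3, against 6.37 to 6.39 in the others. Ugt2b35 was 2.77 in wild-type E2 animal 3, against 2.44 to 2.50. In wild-type placebo animal 5, Gstm3 was 5.32 against 4.89 to 5.00 in the others, and Ugt2b34 was 5.98 against 6.29 to 6.39.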

How the results depend on the processing

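With the probe or probe mean standing for each gene, no alternative tried, left-out arrays included, called a member for E2 in either genotype, for the difference between the E2 effects, or for genotype within one treatment; tested probe by probe, the dimmer Cyp2c38 probe was called under E2 (0.70). The 1 member called in the averaged contrast became 0 with scaling on the array median (Gstm2 at 0.62, adjusted p 0.0978) and with only animals numbered 750 or above (0.61, adjusted p 0.142). It became 2 with only probes well above background on all 20 arrays (Cyp3a25 joined) and 2 with the mean of a gene's probes (Cyp2c38 joined). Leaving out one array gave 1 to 4 members: 4 without wild-type E2 animal 3 (Ces1g, Cyp3a25 and Gsta3 joined), and 2, with Cyp3a25, without wild-type placebo animal 5 or null placebo animal 5. Median scaling moved the median of all genes by -0.11 for E2 in nulls, -0.22 for E2 in wild types, -0.12 for their difference and 0.12 for null minus wild type under E2. The sign turned for 8, 17, 8 and 4 of 36 members in these contrasts, all uncalled. For E2 in wild types they include Nr1i3 (-0.089), Por (-0.039), Cyp2a4 (-0.13), Cyp2b10 (-0.17) and Cyp2c29 (-0.15); relative to the median of all genes Nr1i3 and Por were 0.13 and 0.18. With only animals numbered 750 or above, uncalled E2 differences in nulls were 0.12 for Nr1i2, -0.15 for Nr1i3, 0.34 for Por and 0.73 for Cyp3a11, and the Cyp3a11 difference between E2 effects was -0.63. In the averaged contrast, 5 of 36 members turned sign with median scaling and 2 with quantile scaling. Relative to the median of all genes, 29 were above 0 with median scaling (median 0.15) and 27 with quantile scaling (median 0.096). Over the alternatives the median member difference in this contrast ran from 0.098 to 0.21. The cause of these changes was not tested. All genes called in the averaged contrast ranged from 49 to 273 over the alternatives, and 58.8% of calls were higher in nulls, against 40.8% with median and 48.6% with quantile scaling. Genotype calls under E2 ranged from 35 to 120 and under placebo from 2 to 46, and E2 calls in nulls from 0 to 2, in wild types from 32 to 90 and for their difference from 10 to 40. The labels state no pairing by replicate number. The 30 same-numbered pairs had r from -0.16 to 0.24 (median 0.086), with 12 over 0.1. Of 20 arrays, 8 correlated best with their own number, and these values do not settle whether the numbers pair the animals. With the replicate block the averaged contrast called 1 member and each other contrast 0. Dim probes set the limit of what could be measured for Cyp2c65.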
